A study of Mus musculus with 15 samples.

Results

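H3K4me3 was examined at the promoters of 10 mouse phospholipase A2 genes: Pla2g12a, Pla2g12b, Pla2g4a, Pla2g4b, Pla2g5, Pla2g6, Pla2g7, Pla2g10, Pla2g15 and Pla2g2e. These genes were chosen by name from the family, with earlier results of these data known, out of 21770 protein-coding genes of the GENCODE M39 annotation. A gene was called marked where a peak overlapped the 2000 bp on either side of any of its annotated transcript starts by at least 1 bp, and genes without such a peak were kept. The marked genes were Pla2g12a, Pla2g6 and Pla2g15, and they were the same 3 in each of the 3 peak lists. The other 7 genes had no promoter peak in any list.

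Phospholipases A2 cut the fatty acid from the middle position of a membrane phospholipid, which leaves a free fatty acid and a lysophospholipid. Where the fatty acid is arachidonic acid it feeds the synthesis of prostaglandins and leukotrienes, lipid signals that act on lipolysis and thermogenesis in adipose tissue. The enzymes fall into secreted, cytosolic calcium-dependent, calcium-independent, lysosomal and platelet-activating factor (PAF) hydrolysing types. H3K4me3, the trimethylation of lysine 4 of histone H3, marks the promoters of active and poised genes.

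The cells were mBA cells, brown preadipocytes taken from mouse brown adipose tissue and differentiated in culture. The sample labels call them primary, whereas the study's methods describe immortalisation with SV40 large T-antigen under the PGK promoter. ChIP–seq with an H3K4me3 antibody was done on 4 samples each of untreated wild-type cells (WT), wild-type cells given octyl d-2HG, a cell-permeable form of 2-hydroxyglutarate, at 500 µM for 72 h in DMSO (WT + 2HG), and untreated cells with a knockout of CLPP, a mitochondrial protease (CLPP-KO). Each condition also had 1 input sample. All cells grew in high-glucose medium without pyruvate. The study describes the cells as lines derived from pooled control or knockout animals, and a replicate as an independent culture. Knockout and cell line therefore cannot be told apart. The CLPP-KO cells also received uridine, so knockout and supplement cannot be told apart. The labels name no group given DMSO alone, so 2HG and its solvent cannot be told apart either. The question addressed by the design is whether loss of CLPP and added 2HG come with H3K4me3 at the same promoters.

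The authors called peaks on the 4 samples of a condition together, so that WT has 12342 peaks, WT + 2HG 14059 and CLPP-KO 15118. There is therefore 1 list per condition, no spread between replicates can be given, and no difference between lists has a replicate check or a test. Each peak carries an area under the curve, in which the caller sums over the peak the −log10 p in excess of its threshold, and the −log10 p at its summit. The median summit −log10 p was 9.92 (WT), 14.4 (WT + 2HG) and 15.4 (CLPP-KO). The lists hold nothing that would set these values on 1 scale, and a difference in scale cannot be told apart from one in H3K4me3. The area was therefore ranked within its own list, and a percentile is the share of a list's peaks with an area no larger than that of the peak named. Among cell type markers, promoter peaks were found at 3, 5 and 6 of 11 brown adipocyte genes in WT, WT + 2HG and CLPP-KO, at 3, 2 and 4 of 5 preadipocyte or fibroblast genes and at 0 of 6 macrophage genes in every list. Of 4 endothelial genes 1, Kdr, was marked in every list, and of 4 skeletal muscle genes 2, Myod1 and Pax7, in CLPP-KO alone. Over all protein-coding genes the shares with a promoter peak were 51.3% (WT), 56.4% (WT + 2HG) and 58.2% (CLPP-KO). The study's reporting summary describes a peak call that left out chromosomes X, Y and M and a set of further regions. Coding genes there stayed in this and every other share of all coding genes, though such a call could give them no peak. How far this changes the shares was not computed. None of the 10 genes described lies on these chromosomes. The part of other cells in the results was not tested. The brown adipocyte genes Ucp1, Fabp4, Adipoq, Dio2 and Ppargc1a had no promoter peak in any list. Clpp itself had one in every list, at the percentiles 39.9, 45.2 and 43.4, which does not check the knockout.

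The sequence in front of the marked genes Pla2g6 and Pla2g15 is shown with that of Pla2g4b and Pla2g7, the unmarked genes with the lowest and the highest CpG content around the start. Each run is the nearest stretch of up to 250 bases before the Ensembl canonical start that no annotated exon covers, read 5′ to 3′ on the gene's strand from GRCm39. Capitals mark CpG dinucleotides, the sites of DNA methylation, which are dense at the promoters of many genes that carry H3K4me3. The stretches are chr15:79212632-79212881 (minus strand) for Pla2g6 and chr8:106876916-106876984 (plus strand) for Pla2g15. Those of the unmarked genes are chr2:119863648-119863897 (plus strand) for Pla2g4b and chr17:43878596-43878845 (plus strand) for Pla2g7. The Pla2g15 stretch has 69 bases because an exon of its upstream transcripts ends in front of it.
Pla2g6: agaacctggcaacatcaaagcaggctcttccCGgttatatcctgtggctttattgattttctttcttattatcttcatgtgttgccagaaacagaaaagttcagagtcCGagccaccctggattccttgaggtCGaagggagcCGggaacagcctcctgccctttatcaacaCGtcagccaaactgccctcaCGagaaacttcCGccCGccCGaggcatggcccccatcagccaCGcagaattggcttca
Pla2g15: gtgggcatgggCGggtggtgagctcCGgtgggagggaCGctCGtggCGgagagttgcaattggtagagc
Pla2g4b: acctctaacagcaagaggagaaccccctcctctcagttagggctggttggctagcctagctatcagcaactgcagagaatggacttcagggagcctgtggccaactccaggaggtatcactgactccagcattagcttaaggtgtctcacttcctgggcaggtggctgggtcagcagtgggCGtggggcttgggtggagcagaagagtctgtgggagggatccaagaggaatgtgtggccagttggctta
Pla2g7: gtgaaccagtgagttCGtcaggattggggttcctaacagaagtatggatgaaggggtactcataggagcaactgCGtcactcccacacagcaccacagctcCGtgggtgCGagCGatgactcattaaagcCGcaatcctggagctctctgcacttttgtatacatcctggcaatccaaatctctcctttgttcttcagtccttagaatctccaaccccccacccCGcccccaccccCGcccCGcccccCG
The printed stretches hold 10 CpG in Pla2g6, 5 in the 69 bases of Pla2g15, 1 in Pla2g4b and 10 in Pla2g7. Between the Pla2g6 stretch and its canonical start lie 214 exon bases. Most of that stretch is therefore outside the window used below for CpG content, which holds 27 CpG in Pla2g6 and 11 in Pla2g7. In the Pla2g15 stretch a GC box (GGGCGG) starts at position -61 relative to the canonical start, itself position 0, and an inverted CCAAT box (ATTGG) at position -11. The Pla2g7 stretch ends in a C-rich run in which inverted GC boxes (CCGCCC) start at positions -27, -15 and -10.

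Of the 10 genes, 3 were marked in each list, or 30.0%, and of 10 further phospholipase A2 genes none was marked in any list. Over all protein-coding genes the share was 51.3% (WT), 56.4% (WT + 2HG) and 58.2% (CLPP-KO). In all 3 lists 3 of the 10 genes were marked, against 50.6% of coding genes, and in no list 7 were, against 40.6%. The 40.6% includes coding genes on the chromosomes left out of the described peak call. Of the 10 genes, 0 gained a promoter peak over WT in WT + 2HG or CLPP-KO, as 8.14% of coding genes did. Likewise 0 had a WT promoter peak that at least 1 of the other lists lacked, as 0.634% of coding genes did. With a summit p of at most 1e-05, or an area of at least 1000, WT marked Pla2g12a alone and each other list Pla2g12a and Pla2g15. With every list limited to its 12342 largest peaks, Pla2g6 was not marked in CLPP-KO. Each marked gene had 1 promoter peak per list, and no peak lay in the body of any of the 10 genes outside the promoter windows. By type, the marked genes were the secreted Pla2g12a, the calcium-independent Pla2g6 and the lysosomal Pla2g15. Neither cytosolic gene, Pla2g4a or Pla2g4b, was marked, nor was the PAF-hydrolysing Pla2g7 or any of Pla2g12b, Pla2g5, Pla2g10 and Pla2g2e.

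Pla2g12a encodes an atypical secreted phospholipase A2. The gene (ENSMUSG00000027999.17) lies on chromosome 3 at 129672211 to 129690319 on the plus strand, with 15 transcripts from 11 distinct starts. Its promoter peak covered chr3:129672306-129673100 in WT, 795 bp wide with an area of 3464 and a summit −log10 p of 11.0. In WT + 2HG it covered chr3:129672256-129673047, 792 bp wide with an area of 6935 and a summit −log10 p of 19.6. In CLPP-KO it covered chr3:129672149-129673036, 888 bp wide with an area of 7329 and a summit −log10 p of 21.3.

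The upstream edge of the Pla2g12a peak stood at position 89 (WT), 39 (WT + 2HG) and -68 (CLPP-KO, in front of the canonical start), whereas the downstream edge stood at 883, 830 and 819. Of the annotated starts, 1 lay inside the WT peak, 4 inside the WT + 2HG peak and 9 inside the CLPP-KO peak. The summits lay at positions 354, 371 and 323, which is the coding part of the opening exon in WT and CLPP-KO and the adjoining intron in WT + 2HG. Of the WT + 2HG peak 93.7% overlapped the WT peak, and of the CLPP-KO peak 82.3%. An antisense long noncoding gene, Gm36180, starts 754 bp downstream of the Pla2g12a canonical start and inside the peak of every list, so the signals of these neighbours cannot be told apart.

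**Figure D1:**
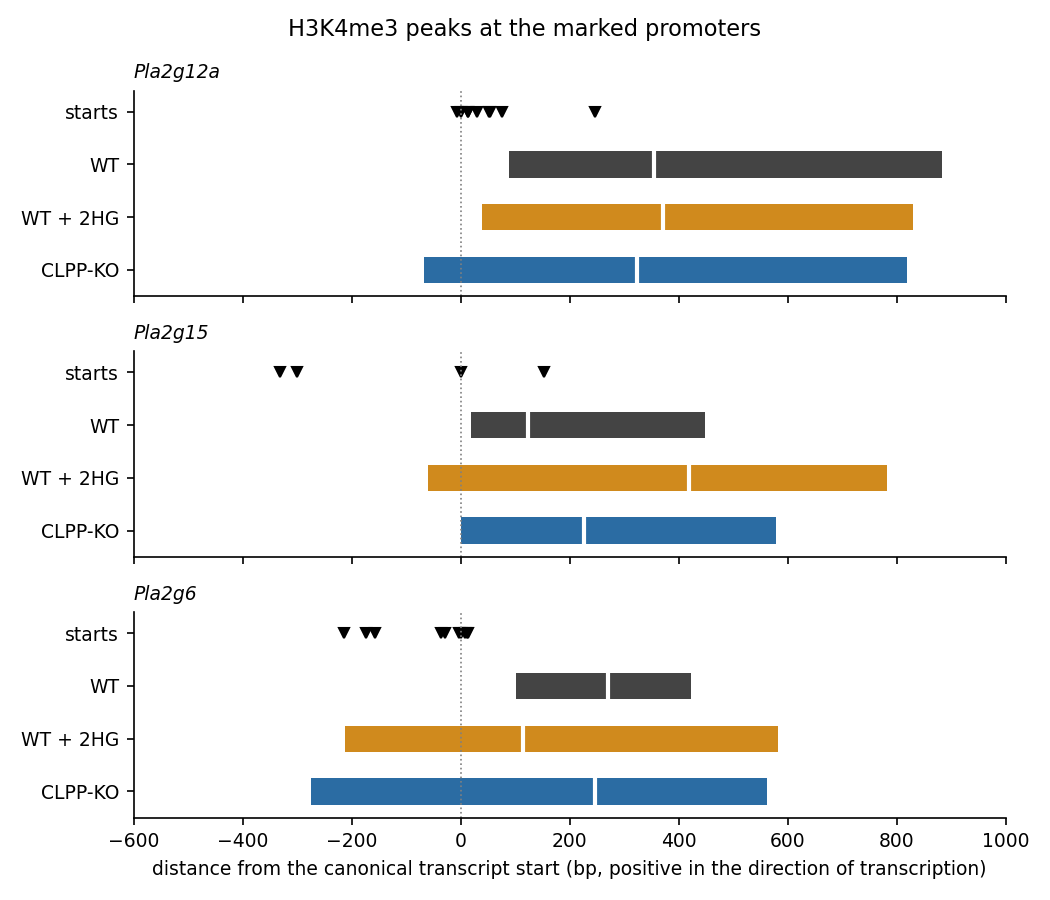
H3K4me3 peaks of the 3 marked genes in each list (bars, with the summit as a white line) against the distance from the canonical transcript start in bp; triangles are annotated starts within the plotted range. The CLPP-KO bar of Pla2g12a begins at -68 bp where the WT bar begins at 89 bp, and the WT + 2HG and CLPP-KO bars of Pla2g6 cover starts that its 322 bp WT peak does not reach.

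By area the Pla2g12a peak stood at the percentile 56.1 (WT), 62.0 (WT + 2HG) and 59.4 (CLPP-KO). These are close to the medians for the strongest promoter peaks of all marked coding genes, which were 59.3, 60.6 and 62.0. Pla2g12a was 5.94 points higher in WT + 2HG than in WT, and 56.9% of the 11057 coding genes marked in both lists had a lower difference, with a median of 3.69 points. In CLPP-KO it was 3.33 points higher than in WT, and 43.6% of 11084 genes had a lower difference, with a median of 5.27 points. When the 11021 coding genes marked in all 3 lists were ranked against each other alone, Pla2g12a stood at 45.5, 46.2 and 39.2, which turned its difference in CLPP-KO from 3.33 to -6.35 points. Its width was 0.996 times that of WT in WT + 2HG and 1.12 times in CLPP-KO, and over all genes the median ratio was 1.10 in both. The summit −log10 p was 1.79 and 1.94 times that of WT, against medians of 1.57 and 1.72 over all genes. A lower ratio was found for 67.4% and 66.7% of genes, so the Pla2g12a differences lay inside the spread over all coding genes.

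The genes whose percentiles were nearest to those of Pla2g12a over the 3 lists were Fam219b, Cnot10, Nhsl3, Setdb1 and Pomgnt2, at Euclidean distances of 1.07 to 1.82 points among 11021 genes. Fam219b, the nearest, stood at 56.5 (WT), 61.1 (WT + 2HG) and 59.3 (CLPP-KO).

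Pla2g6 encodes the calcium-independent group VI phospholipase A2, whose loss in humans causes a neuroaxonal dystrophy. The gene (ENSMUSG00000042632.19) lies on chromosome 15 at 79170418 to 79212631 on the minus strand, with 52 transcripts from 17 distinct starts. Its WT peak, chr15:79211995-79212316, was 322 bp wide with an area of 222 and a summit −log10 p of 3.62. In WT + 2HG the peak covered chr15:79211835-79212629 and was 795 bp wide, with an area of 855 and a summit −log10 p of 4.60. In CLPP-KO it covered chr15:79211855-79212691 and was 837 bp wide, with an area of 252 and a summit −log10 p of 3.16.

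At Pla2g6 the CLPP-KO peak therefore spanned the cluster of starts, and the WT peak did not. The WT + 2HG peak, with its upstream edge at position -212, left out the start at -214, at which 15 of the 52 transcripts begin. The WT peak fell 87 bp short of the nearest start and held none, whereas 9 starts lay inside the WT + 2HG peak and 10 inside the CLPP-KO peak. Only 40.5% of the WT + 2HG peak and 38.5% of the CLPP-KO peak overlapped the WT peak. All 3 summits lay in the untranslated opening exon of the canonical transcript, at positions 270, 114 and 246. The width was 2.47 times that of WT in WT + 2HG and 2.60 times in CLPP-KO, and 97.8% and 97.9% of coding genes had a lower ratio.

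The areas in WT and CLPP-KO lay close to the smallest in their lists. Pla2g6 stood at the percentile 1.34 (WT), 15.9 (WT + 2HG) and 3.15 (CLPP-KO). Its peak scores were 688 in WT and 301 in CLPP-KO, whereas the other promoter peaks of the marked genes were at the limit of 1000. The percentile in WT + 2HG was 14.5 points above that in WT, and 78.1% of coding genes had a lower difference. In lists of equal size, each with its 12342 largest peaks, Pla2g6 stood at 1.34 in WT and at 4.17 in WT + 2HG. In CLPP-KO it was 1.81 points above WT, and 38.1% of genes had a lower difference. The summit −log10 p in CLPP-KO was 0.873 times that of WT, and 0.722% of coding genes had a lower ratio. In CLPP-KO the Pla2g6 peak was thus wider than in WT with a lower summit −log10 p, whereas 98.1% of coding genes had a higher one. Among the genes marked in all 3 lists it stood at 0.454, 2.13 and 0.163.

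Pla2g15 encodes the lysosomal phospholipase A2, which degrades phospholipids in lysosomes. The gene (ENSMUSG00000031903.9) lies on chromosome 8 at 106876653 to 106891733 on the plus strand, with 9 transcripts from 5 distinct starts. In WT its peak covered chr8:106877004-106877434, 431 bp wide with an area of 637 and a summit −log10 p of 4.58. In WT + 2HG it covered chr8:106876925-106877767, 843 bp wide with an area of 1425 and a summit −log10 p of 6.02. In CLPP-KO it covered chr8:106876985-106877563, 579 bp wide with an area of 1345 and a summit −log10 p of 6.10.

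The Pla2g15 peak was narrowest in WT and widest in WT + 2HG. Its upstream edge lay at position 19 (WT), -60 (WT + 2HG) and 0 (CLPP-KO), so the canonical start, at which 5 of the transcripts begin, was inside the WT + 2HG peak, the opening base of the CLPP-KO peak, and outside the WT peak. The summits were at positions 123, 418 and 227, that is in the untranslated part of the opening exon, in the intron after it and in the coding part of that exon. The width was 1.96 times that of WT in WT + 2HG, with a lower ratio in 93.7% of coding genes, and 1.34 times in CLPP-KO, with a lower ratio in 76.3%. By area Pla2g15 stood at the percentiles 16.0, 22.2 and 22.0. Its differences from WT of 6.16 and 6.03 points had 57.5% and 52.4% of coding genes below them. Among the genes marked in all 3 lists the percentiles were 7.64, 4.68 and 3.39, so the sign of both differences depended on the set ranked.

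**Figure D2:**
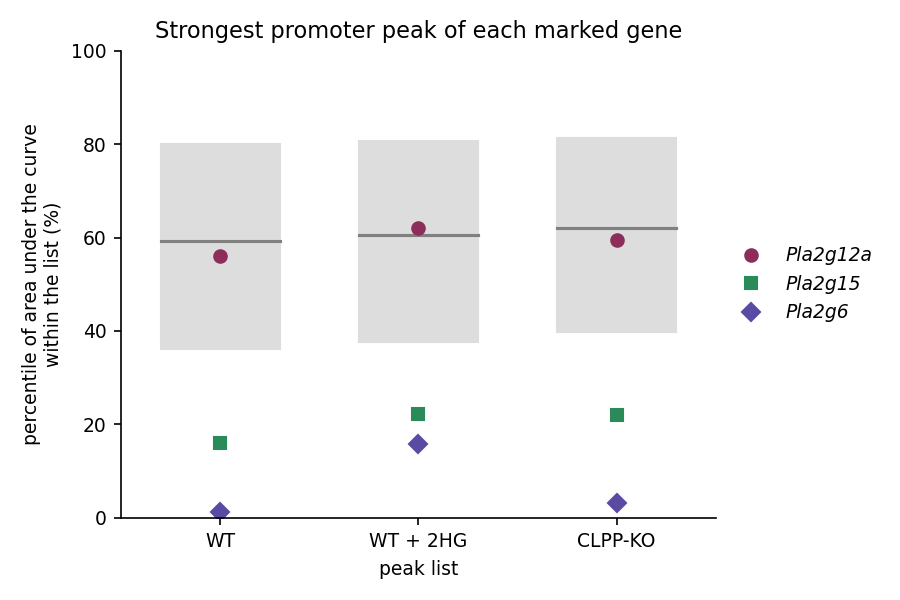
Percentile of the area under the curve of the strongest promoter peak within its list, for Pla2g12a, Pla2g15 and Pla2g6 (points); grey boxes span the quartiles of all marked coding genes and the grey line their median. Pla2g12a lies near the median in each list (56.1, 62.0 and 59.4), whereas Pla2g15 (16.0 to 22.2) and Pla2g6 (1.34 to 15.9) lie below the lower quartile of 36.1 to 39.9.

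The order of the 3 marked genes by percentile was the same in every list, with Pla2g12a highest, Pla2g15 next and Pla2g6 lowest. Pla2g12a was also the only one with a WT area above 1000. For Pla2g15 the area passed 1000 in WT + 2HG and in CLPP-KO but not in WT, and for Pla2g6 it stayed below 1000 in each list. With no replicate check, none of these differences between lists can be set against the spread between samples.

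For the unmarked genes the rule had no near misses. The gene just outside the promoter window was Pla2g4b, a relative of the cytosolic phospholipase A2, whose nearest peak lay 5232 (WT), 5489 (WT + 2HG) and 5445 bp (CLPP-KO) from a start. Just inside it, the peak farthest from a start was that of Pla2g6 in WT, at 87 bp. The peak near Pla2g4b lies at the start of Jmjd7, a protein hydroxylase gene, and of the readthrough gene Gm28042, whose span of 119857974 to 119873514 on chromosome 2 reaches from Jmjd7 over Pla2g4b. That peak stood at the percentiles 43.6, 31.1 and 34.6 and was 735, 462 and 578 bp wide. A further gene, Gm13999, also starts within 2000 bp of that peak in every list. The lists do not separate H3K4me3 of Jmjd7 from that of the readthrough gene or of Gm13999, while no peak lay at the starts of Pla2g4b itself.

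Pla2g4a encodes the cytosolic calcium-dependent phospholipase A2 that releases arachidonic acid. It spans 149705369 to 149837053 on chromosome 1, on the minus strand, with 8 transcripts from 8 starts. Its nearest peak lay 138614 bp away (WT), 138266 bp (WT + 2HG) and 138314 bp (CLPP-KO), and in every list this was the promoter peak of Ptgs2, which encodes the inducible cyclooxygenase that turns arachidonic acid into prostaglandins. The Ptgs2 peak stood at the percentiles 20.2, 38.5 and 31.6. Another gene, Ptgs2os, also starts within 2000 bp of this peak in every list, so the signals of these neighbours cannot be told apart. Along this stretch of chromosome 1 the enzyme that uses the product was therefore marked in all 3 lists and the enzyme that releases it in none.

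The secreted genes Pla2g5 and Pla2g2e lie close together on chromosome 4, and their nearest peak was the same one, at the promoter of the deubiquitinase gene Otud3. Its distance from Pla2g5 was 49494 bp (WT), 49392 bp (WT + 2HG) and 49441 bp (CLPP-KO). From Pla2g2e it was 33778, 33676 and 33725 bp. Pla2g2a, another secreted gene that lies inside the span of Pla2g5, also had no promoter peak in any list. Pla2g10, a secreted enzyme, had its nearest peak 14516, 14567 and 14565 bp away, at the start of A930007A09Rik.

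For the remaining 2 genes the nearest peak was not the same in every list. Pla2g7 encodes the lipoprotein-associated enzyme that hydrolyses PAF. Its nearest peak was at Cyp39a1 and Slc25a27, 84090 bp away, in WT, and at Tdrd6 in WT + 2HG and CLPP-KO, 47197 and 46929 bp away, with percentiles of 23.0 and 27.1. Pla2g12b, a catalytically inactive relative of Pla2g12a, had its nearest WT peak 57617 bp away at a site with no annotated start within 2000 bp, where the percentile was 1.00. In WT + 2HG and CLPP-KO its nearest peak was at P4ha1, a prolyl hydroxylase gene, 78982 and 79024 bp away.

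**Figure D3:**
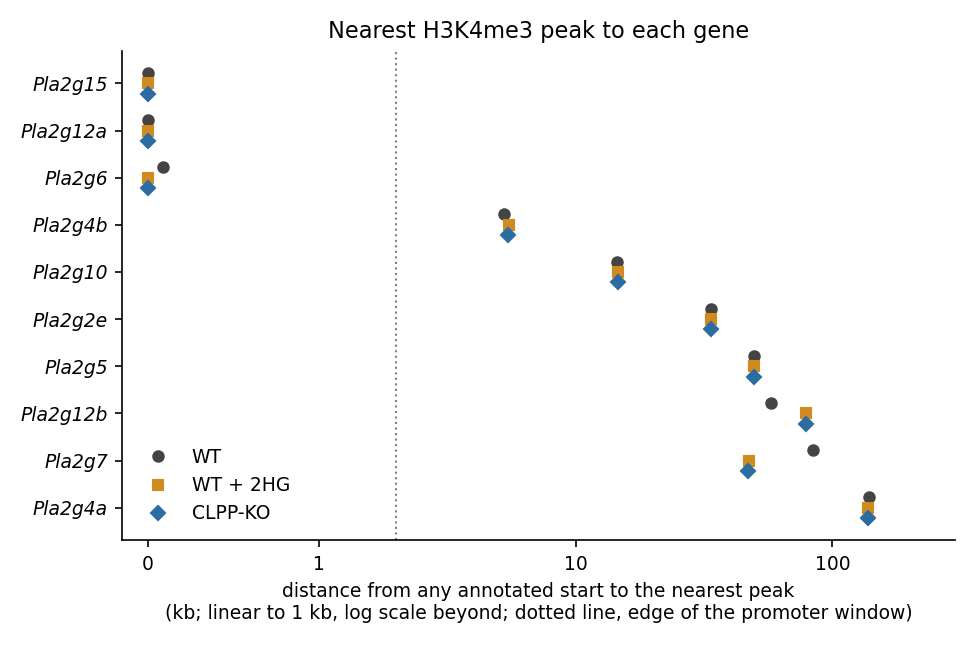
Distance in kb from any annotated start of each gene to the nearest peak in each list (linear to 1 kb, log scale beyond); the dotted line is the edge of the promoter window at 2000 bp. Pla2g15, Pla2g12a and Pla2g6 lie at or next to 0, and the other 7 genes lie from 5232 bp (Pla2g4b in WT) to 138614 bp (Pla2g4a in WT).

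The marked genes shared a sequence feature that the rule did not use. Observed over expected CpG, the number of CpG divided by that expected from the C and G content, was computed for the 250 bases before and the 50 bases from the canonical start, a window that takes in the start and any upstream exon. It was 0.851 for Pla2g12a with 20 CpG, 0.840 for Pla2g6 with 27 and 0.938 for Pla2g15 with 19. A lower value was found for 82.8%, 81.6% and 90.3% of all coding promoters. The median was 0.744 over coding genes marked in all 3 lists and 0.196 over those marked in none. Those marked in none include coding genes on the chromosomes left out of the described peak call.

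The 7 unmarked genes were all lower than the 3 marked ones. Pla2g4b was lowest with 0.0875 and 2 CpG, followed by Pla2g12b with 0.149, Pla2g5 with 0.266 and Pla2g2e with 0.291. Pla2g4a had 0.407, Pla2g10 0.490 and Pla2g7 0.556 with 11 CpG. Pla2g7 lay above the median of 0.517 over all coding promoters and above the upper quartile of 0.346 over those marked in no list. In the wider window of 1000 bp on either side of the gene's 5′ end the values of the marked genes were 0.658 for Pla2g12a, 0.529 for Pla2g6 and 0.464 for Pla2g15, and those of the unmarked genes ran from 0.159 to 0.432, so the order of the groups held with a smaller gap. Genes are not replicates of a condition, and these values are descriptions of the reference sequence.

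**Figure D4:**
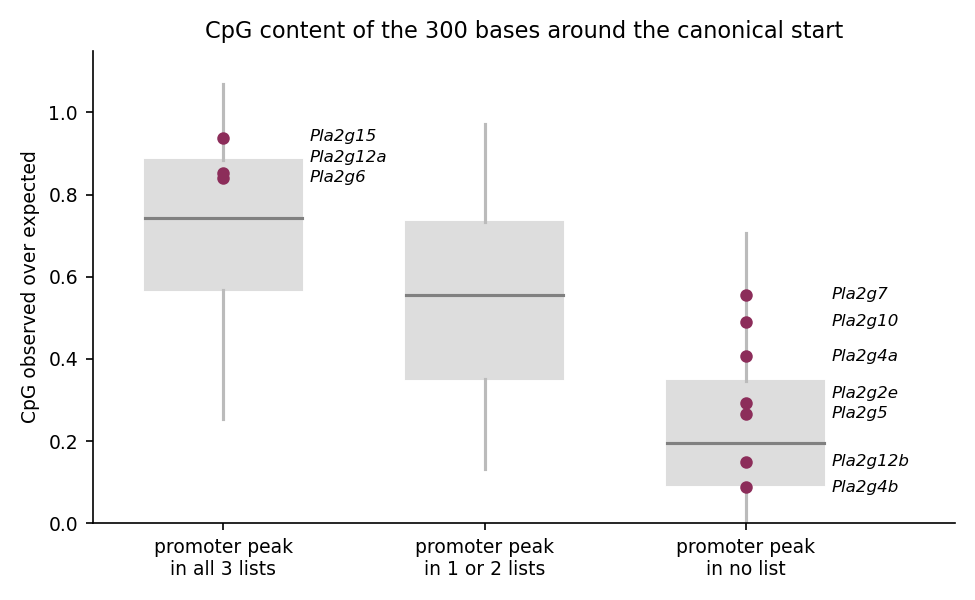
Observed over expected CpG in the 250 bases before and 50 bases from the canonical start of each gene (points), by the number of lists that mark its promoter; for all coding genes of the class, boxes are quartiles with the median as a line and whiskers reach the 5th and 95th percentiles. The marked genes lie between 0.840 and 0.938 and the unmarked genes between 0.0875 and 0.556.

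Motifs were searched on both strands of the same window. The GC box (GGGCGG) was present in 4 of the 10 genes, namely Pla2g12a, Pla2g6, Pla2g15 and the unmarked Pla2g7, and in 42.5% of all coding promoters. The CCAAT box (CCAAT) was present in 7 of the 10, the 3 marked genes among them, and in 39.9% of promoters. The E-box (CACGTG) was found in Pla2g12a and Pla2g6, and in 7.81% of promoters. The CRE core (TGACG), the core of the cyclic AMP response element, was found in Pla2g6, Pla2g7 and Pla2g2e, and in 22.6%. The TATA box (TATAAA) was found in Pla2g7 alone, on the antisense strand and after the start, and in 13.2%. The letters of the GC box, the CRE core and the E-box each contain a CpG. The GC box was present in 63.4% of promoters marked in all lists and 15.1% of those marked in none. These shares were 31.1% and 12.3% for the CRE core and 10.5% and 4.36% for the E-box. They went the other way for the CCAAT box, at 38.9% and 41.6%, and for the TATA box, at 7.26% and 21.6%.

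The other genes of the pathway were taken from lists that hold enzymes of related activity, the enzymes that reverse the reaction and those that use its products. Beside every count below stand the shares of all coding genes marked, 51.3% (WT), 56.4% (WT + 2HG) and 58.2% (CLPP-KO). None of 10 further phospholipase A2 genes, among them Pla2g1b, Pla2g2a, Pla2g2c and Pla2g2d, had a promoter peak in any list. Of the 7 patatin-like phospholipases, which share a catalytic fold with Pla2g6, WT marked 4, WT + 2HG 5 and CLPP-KO 5. Pnpla2, the triglyceride lipase of adipocytes, stood at the percentiles 67.8, 61.6 and 70.2. Pnpla3, a related lipid hydrolase, had no promoter peak in WT and stood at 28.0 (WT + 2HG) and 52.9 (CLPP-KO).

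Of the 3 PLAAT enzymes, small phospholipases and acyltransferases, 1 was marked in WT and 2 in each of the other lists, and they were not the same genes. Plaat3, the main phospholipase A2 of adipocytes in mice, had no promoter peak in WT and stood at 19.3 (WT + 2HG) and 29.3 (CLPP-KO). Plaat5 likewise had none in WT and stood at 5.92 and 23.7. Plaat1 was marked in WT alone, at 11.7. PAF acetylhydrolases were marked in 3 of 4 cases in every list, with Pafah1b1, a subunit of the intracellular enzyme, at 98.0, 96.6 and 97.3. Of the remaining 5 genes the activator Plaa, the peroxiredoxin Prdx6 and Abhd3 were marked in every list, and the receptor Pla2r1 and Lcat, which esterifies plasma cholesterol, in none.

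The 9 lysophospholipid acyltransferases, which put a fatty acid back on the lysophospholipid that phospholipases A2 leave, were all marked in every list. Their median percentiles were 79.8, 75.3 and 79.1, against 59.3, 60.6 and 62.0 over all marked coding genes. Of the marked phospholipase A2 genes, Pla2g12a stood at 56.1, 62.0 and 59.4. Pla2g15 stood at 16.0, 22.2 and 22.0, and Pla2g6 at 1.34, 15.9 and 3.15. Lpcat1 stood at 89.3, 85.0 and 87.0, and Lpcat3 at 38.8, 58.2 and 61.6.

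Of the 15 genes of eicosanoid synthesis, WT marked 6, WT + 2HG 9 and CLPP-KO 8. Ptgs1, the constitutive cyclooxygenase, had no promoter peak in WT and stood at 34.6 (WT + 2HG) and 32.1 (CLPP-KO). Ptges, a prostaglandin E synthase, likewise had none in WT and stood at 5.43 and 26.0, and Alox12, a lipoxygenase, was marked in WT + 2HG alone, at 8.03. Of the 13 eicosanoid receptors, WT marked 2, WT + 2HG 5 and CLPP-KO 3. Among the unmarked ones, Cysltr1 lies on chromosome X, which the described peak call left out. Ptger3, a prostaglandin E receptor, had no promoter peak in WT and stood at 24.4 and 56.3, whereas the leukotriene receptor Ltb4r1, at 3.41, and the prostaglandin F receptor Ptgfr, at 19.2, were marked in WT + 2HG alone. The lists differ in length, and with equal-sized lists WT + 2HG marked 7 genes of synthesis, 4 receptors and 1 PLAAT gene, while the counts of WT and CLPP-KO were as given. In the full lists, a gain over WT in at least 1 list was seen for 3 genes of synthesis and 3 receptors. It was also seen for 1 patatin-like and 2 PLAAT genes, and for none of the 10 genes described or the 10 further phospholipase A2 genes. Over all coding genes the share with a gain was 8.14%, and 4.98% with equal-sized lists. Gains in the pathway lists were not counted at equal size.

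**Figure D5:**
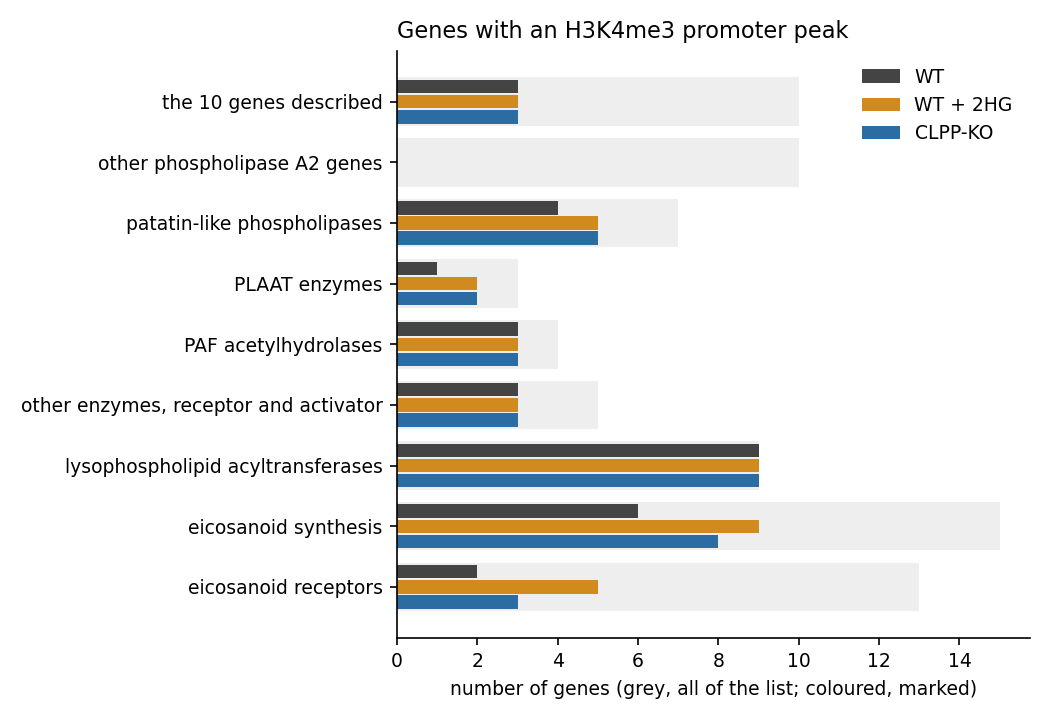
Number of genes with an H3K4me3 promoter peak in WT, WT + 2HG and CLPP-KO (coloured bars) out of all genes of each list (grey bars). Over all coding genes the shares marked were 51.3%, 56.4% and 58.2%. The 10 genes described have 3 marked in every list and the 10 further phospholipase A2 genes 0, whereas the 9 lysophospholipid acyltransferases are all marked and eicosanoid synthesis has 6 of 15 marked in WT against 9 and 8 in the other lists.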

How the data were processed

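H3K4me3 ChIP–seq libraries of 4 samples per condition, with 1 input each, were trimmed by the authors (fastp 0.23.4), mapped to GRCm39 (BWA 0.7.17) and used to call peaks with Genrich 0.6.1 on the 4 samples together; versions are per the labels. The deposited lists give per peak a score limited to 1000, a signal (the area under the curve), a summit −log10 p-value and the summit's offset, with −1 as placeholder for q. The study's reporting summary names a q threshold and a minimum area below the smallest area found, which was 200 in each list. As the lists hold no q, that threshold cannot be checked in them. The lists hold no read counts, so the depth behind a peak is unknown. Each list was assigned to its condition by the library names in the labels.

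Peaks were joined to GENCODE M39 starts (78289 genes), with 0 peaks beyond a chromosome's end in the reference. The members and gene lists were chosen with earlier results of these data known. Named were all members, genes starting within 2000 bp of their peaks, the 5 genes nearest to Pla2g12a in percentile, Clpp, and, of the pathway lists, genes whose mark differed from WT and some of the 4 others that come first in alphabetical order; Prdx6 and the genes at the nearest peaks were named after their values were seen. The promoter window of the sequence features was read from GRCm39. The promoter sequence of Pla2g12a is not reported here. The joining code was tested on simulated data, where 1386 of 1386 overlaps equalled those of bedtools 2.31.1. Alternatives changed the window, the starts, the overlap, the thresholds, the list sizes and the ranking. Python 3.11.15, numpy 2.4.6, pandas 2.3.3 and matplotlib 3.10.9 were used.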

Additional observations from a re-analysis of the deposited data

How the results depend on the processing

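The counts of marked genes held under windows of 1000 and 3000 bp, with starts of protein-coding transcripts or the gene's own 5′ end alone, and with the summit required inside the window: each gave Pla2g12a, Pla2g6 and Pla2g15 in every list. Stricter thresholds changed them. With a summit p of at most 1e-05, or with an area of at least 1000, 1 gene was marked in WT (Pla2g12a) and 2 in each of the other lists (Pla2g12a and Pla2g15), so that 1 gene, Pla2g15, was marked in WT + 2HG or CLPP-KO and not in WT, against 9.09% and 10.3% of coding genes. With each list limited to its 12342 largest peaks, Pla2g6 was no longer marked in CLPP-KO, which made 1 gene marked in WT and missing from another list, against 2.05% of coding genes. In those equal-sized lists Pla2g12a stood at the percentiles 56.1, 56.7 and 50.3 and Pla2g15 at 16.0, 11.3 and 4.48, and Pla2g6 at 4.17 in WT + 2HG against 15.9 in the full list, so the sign of the difference from WT turned for Pla2g15 in both comparisons and for Pla2g12a in CLPP-KO. Ranking among genes marked in all 3 lists was chosen after seeing the data. Of the percentiles under an alternative, 50 of 53 fell outside a binomial interval set by the number of peaks in the list. Each alternative ranks another set or measure. A percentile is a rank within a complete list, so this interval does not measure the spread between samples. Of the pathway counts, 3 changed with equal-sized lists, all in WT + 2HG: eicosanoid synthesis from 9 to 7, eicosanoid receptors from 5 to 4 and PLAAT enzymes from 2 to 1. In the wider window 7 CpG values moved by over 0.1. The cause of these changes was not tested. No paired analysis was possible because the peaks were called on the 4 samples of a condition together, and leaving out a replicate was not possible for the same reason. Precision is limited by the single list per condition, and weak peaks such as those of Pla2g6 in WT and CLPP-KO lie next to the smallest areas in their lists.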
